A study of Mus musculus with 4 samples.

Results

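The thermogenic identity genes are 10 mouse genes whose RNA or product marks or drives heat production in brown and beige fat: Ucp1, Dio2, Cox7a1, Cox8b, Ppargc1a, Ppargc1b, Esrrg, Ppara, Prdm16 and Lhx8. They were chosen by name from the 32285 genes of the deposited count tables, and all 10 were found. The rule holds no measured value, but earlier results of these data were known when the members were chosen. They were read in 4 single-nucleus RNA libraries, 1 for each group, from mice that were all fed a high-fat diet. The groups are BAT surgery and BAT sham, labelled as brown adipose tissue, and BeAT surgery and BeAT sham, labelled as beige adipose tissue. The series title gives the operation as bariatric surgery, and the comparison asks what it does to the 2 kinds of fat. The labels do not state strain, age, sex, the number of animals behind a library or the depot from which the beige tissue was taken. The molecule is labelled nuclear RNA, although the protocol describes a suspension of digested, viable cells.

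Brown and beige fat cells burn fuel for heat through Ucp1, a channel that lets protons back across the inner mitochondrial membrane. Cold acts through noradrenaline and cyclic AMP, which switch on Ucp1, Ppargc1a and Dio2, while Prdm16, Ppargc1b, Esrrg and Ppara set up the many mitochondria and the fat oxidation that the channel needs. White fat cells carry little or no Ucp1 and are known instead for leptin.

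With 1 library in each group there was no replicate, so no difference was tested, and every interval below is a 95% interval for counting error only. After filters, 9131 nuclei were kept for BAT surgery, 9970 for BAT sham, 5302 for BeAT surgery and 9760 for BeAT sham, with median depths of 5168, 3978, 2647 and 3062.5 UMIs (unique molecules counted) per nucleus in that order. Nuclei were clustered on 2000 variable genes, from which the 10 members were not removed. The clusters were then named as classes by marker genes that do not include the members. A class is called "-like" because only RNA was read. The adipocyte-like class held 569, 3998, 480 and 4371 nuclei in the same order, and all 11 of its markers were present in each library. BAT surgery stands apart from the rest. In that library 5656 of the 9131 nuclei were epithelial-like, against 59, 0 and 0 nuclei in the other libraries. Genes that led its epithelial-like clusters included Crisp4 and Wfdc8 in cluster 8, Adam28 in cluster 9 and Defb47 in cluster 18. Of its 569 adipocyte-like nuclei, 520 formed a cluster of their own, cluster 19, which took only 2 nuclei from other libraries. With 1 library a group, surgery cannot be told apart from the site of dissection or any other difference between libraries. BeAT surgery was rich in lymphocytes, with 1573 T or NK-like and 1688 B cell-like nuclei.

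Ucp1 was all but missing. BAT surgery held 25 Ucp1 UMIs, BAT sham 3, BeAT surgery 1 and BeAT sham 6, over all kept nuclei. In adipocyte-like nuclei the counts were 0 UMIs in BAT surgery, 2 in BAT sham, 0 in BeAT surgery and 3 in BeAT sham. Levels are given as CPM, the UMIs of a gene per 1000000 UMIs of the class. A count of 0 allows up to 0.832 CPM in BAT surgery and up to 0.707 CPM in BeAT surgery, and the counts of BAT sham and BeAT sham come to 0.0802 and 0.159 CPM. Of the 25 UMIs in BAT surgery, 22 lay in epithelial-like nuclei, 2 in macrophage-like nuclei and 1 in an unnamed cluster. No library labelled brown or beige therefore had Ucp1 in its adipocyte-like nuclei above a handful of molecules, and at 0 to 3 UMIs a library no difference between groups was detectable.

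Dio2, the deiodinase that makes active thyroid hormone inside brown fat cells, was as thin. Adipocyte-like nuclei held 3 Dio2 UMIs in BAT surgery, 9 in BAT sham, 1 in BeAT surgery and 17 in BeAT sham. These come to 0.832 CPM (0.172 to 2.43) in BAT surgery, 0.361 (0.165 to 0.685) in BAT sham, 0.236 (0.00596 to 1.31) in BeAT surgery and 0.902 (0.525 to 1.44) in BeAT sham. All 4 intervals overlap, and the largest count, in BeAT sham, came from 13 of 4371 nuclei.

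The promoter sequences set these near-silent genes beside detected ones. They show the same short cyclic AMP response motif upstream of 4 members. Ucp1 and Dio2 were nearly absent, and Ppargc1a and Ppara were found in every library. These are all the members whose searched windows held the motif, so its presence in each printed window was fixed by the choice. The windows of Prdm16, Esrrg, Lhx8, Cox7a1 and Cox8b did not hold it. The windows are from RefSeq (build GRCm38.p6), run from 250 bases before to 50 bases after a gene start, 5′ to 3′ on the gene's strand, and carry the motif in capitals. Ucp1 lies at chr8:83290098-83290397 (plus strand), Dio2 at chr12:90738989-90739288 (minus), Ppargc1a at chr5:51567676-51567975 (minus) and Ppara at chr15:85735526-85735825 (plus).
Ucp1: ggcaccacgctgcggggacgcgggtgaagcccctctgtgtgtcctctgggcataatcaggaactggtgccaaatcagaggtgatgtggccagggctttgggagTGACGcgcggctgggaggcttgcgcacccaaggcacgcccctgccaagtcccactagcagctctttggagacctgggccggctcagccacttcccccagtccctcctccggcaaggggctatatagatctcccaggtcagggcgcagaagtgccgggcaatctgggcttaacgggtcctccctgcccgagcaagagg
Dio2: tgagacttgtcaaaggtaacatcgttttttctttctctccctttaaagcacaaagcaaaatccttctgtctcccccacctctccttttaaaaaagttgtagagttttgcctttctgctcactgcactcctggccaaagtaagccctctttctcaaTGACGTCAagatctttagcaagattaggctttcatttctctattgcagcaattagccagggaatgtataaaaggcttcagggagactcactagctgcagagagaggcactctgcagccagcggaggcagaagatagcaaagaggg
Ppargc1a: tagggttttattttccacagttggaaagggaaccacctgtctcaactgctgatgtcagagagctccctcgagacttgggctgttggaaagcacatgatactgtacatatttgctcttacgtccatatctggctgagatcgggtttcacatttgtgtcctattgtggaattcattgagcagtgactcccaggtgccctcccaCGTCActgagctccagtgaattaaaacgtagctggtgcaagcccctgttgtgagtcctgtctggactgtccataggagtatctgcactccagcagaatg
Ppara: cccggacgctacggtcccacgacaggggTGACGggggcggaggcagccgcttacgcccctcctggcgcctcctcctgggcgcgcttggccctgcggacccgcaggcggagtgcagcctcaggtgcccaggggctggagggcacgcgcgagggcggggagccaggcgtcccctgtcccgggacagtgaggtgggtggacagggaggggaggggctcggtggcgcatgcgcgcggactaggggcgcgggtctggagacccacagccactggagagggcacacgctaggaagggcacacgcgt
The motif searched was TGACG or its reverse complement CGTCA, on either strand. It starts 147 bases before the start site in Ucp1, 49 in Ppargc1a and 222 in Ppara, and once in each. In Dio2 it starts 95 bases before the start and both forms overlap in 1 palindrome of 8 bases. Windows were found for 9 of the 10 members, 12 windows in all with 4 for Esrrg, and 4 windows held the motif. Of all 32851 RefSeq windows of the same length, 20.8% hold it. A match describes the letters of the window and does not show that a factor binds there.

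Cox7a1 and Cox8b encode the muscle and brown fat forms of 2 subunits of cytochrome oxidase, the last enzyme of the respiratory chain. Adipocyte-like nuclei held 1 Cox7a1 UMI in BAT surgery, 16 in BAT sham, 0 in BeAT surgery and 26 in BeAT sham. Cox8b was seen more often, with 7 UMIs in BAT surgery, 101 in BAT sham, 18 in BeAT surgery and 180 in BeAT sham, or 1.94 CPM (0.781 to 4.0), 4.05 (3.30 to 4.92), 4.24 (2.51 to 6.70) and 9.55 (8.20 to 11) in that order. BeAT sham was the highest and BAT surgery the lowest. In T or NK-like nuclei, lymphocytes that should lack the gene, Cox8b stood at 0 CPM in BAT surgery, 6.73 (3 UMIs) in BAT sham, 1.61 (7 UMIs) in BeAT surgery and 15.2 (5 UMIs) in BeAT sham. The lymphoid level was 166% of the adipocyte level in BAT sham (33.7 to 499) and 160% in BeAT sham (51.2 to 379). With so few lymphoid UMIs both intervals span 100%, so Cox8b in sham adipocyte-like nuclei could not be set above the lymphoid level and is not read as expression. Cox7a1 had 2, 0, 0 and 2 lymphoid UMIs in that order of libraries, and BeAT sham had 6.10 CPM of it in T or NK-like against 1.38 CPM in adipocyte-like nuclei. The place where both genes were high was muscle: skeletal muscle-like cluster 22 of BAT sham held 65.2 CPM of Cox7a1 (47.5 to 87.2) and 182 CPM of Cox8b (152 to 217), in 322 nuclei.

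**Figure D1:**
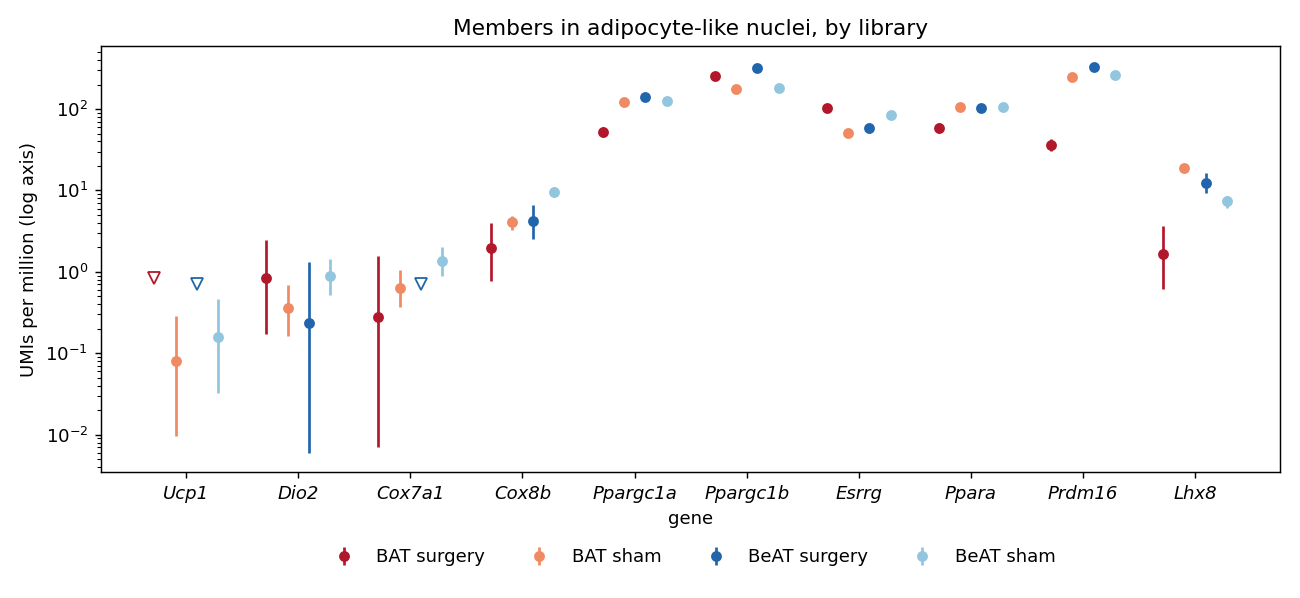
Level of each member in adipocyte-like nuclei in CPM on a log axis, with 95% counting intervals. Open triangles mark a count of 0, drawn at the level of 3 UMIs. Ucp1, Dio2 and Cox7a1 lie near or under 1 CPM in each library, and BAT surgery is the lowest point for Ppargc1a, Ppara, Prdm16 and Lhx8. Genes differ in length, so heights compare libraries and not genes.

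Ppargc1a, the coactivator that couples adrenergic signals to mitochondrial growth, was present in all 4 libraries. Adipocyte-like nuclei held 190 Ppargc1a UMIs in BAT surgery, 3055 in BAT sham, 588 in BeAT surgery and 2386 in BeAT sham. Its level was 52.7 CPM (45.5 to 60.8) in BAT surgery, 122 (118 to 127) in BAT sham, 139 (128 to 150) in BeAT surgery and 127 (122 to 132) in BeAT sham. BAT surgery was below the other 3 libraries, whose levels lay close together. Its close relative Ppargc1b, which drives basal mitochondrial content, had 255 CPM (238 to 272) in BAT surgery, 179 (173 to 184) in BAT sham, 322 (305 to 339) in BeAT surgery and 182 (176 to 188) in BeAT sham. Here both surgery libraries were above both sham libraries, and the sham intervals overlapped.

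Ppara, the nuclear receptor that switches on fatty acid oxidation, had 58.8 CPM (51.2 to 67.3) in BAT surgery, 107 (103 to 111) in BAT sham, 103 (93.3 to 113) in BeAT surgery and 105 (101 to 110) in BeAT sham. Again BAT surgery was low, and the intervals of the other 3 overlapped. Esrrg, an orphan receptor that turns on oxidative genes, had 102 CPM (91.9 to 113) in BAT surgery, 50.5 (47.8 to 53.4) in BAT sham, 58.4 (51.4 to 66.2) in BeAT surgery and 84.3 (80.2 to 88.6) in BeAT sham. Its order was unlike that of any other member, with BAT surgery highest and BAT sham lowest. Esrrg came in clumps: in BAT sham 490 of 3998 adipocyte-like nuclei held its 1260 UMIs, and the highest single nucleus held 45 of them.

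Prdm16, the zinc-finger regulator that commits cells to the brown and beige fate, separated the libraries most clearly among the well-counted members. Its UMIs in adipocyte-like nuclei numbered 132 in BAT surgery, 6200 in BAT sham, 1386 in BeAT surgery and 4971 in BeAT sham. The levels were 36.6 CPM (30.6 to 43.4) in BAT surgery, 249 (242 to 255) in BAT sham, 326 (310 to 344) in BeAT surgery and 264 (256 to 271) in BeAT sham. Prdm16 is thus not scarce where Ucp1 is: 65.2% of BAT sham and 56.7% of BeAT sham adipocyte-like nuclei held at least 1 of its UMIs, beside 2.74% and 2.05% of their T or NK-like nuclei. Those lymphoid nuclei were shallower, with median depths of 1786 and 1411 UMIs against 5898 and 4183 in the adipocyte-like nuclei.

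Lhx8, a LIM homeobox factor used as a marker of classical brown fat in mouse, was counted sparsely. Its UMIs numbered 6 in BAT surgery, 470 in BAT sham, 53 in BeAT surgery and 138 in BeAT sham. The levels were 1.66 CPM (0.611 to 3.62) in BAT surgery, 18.8 (17.2 to 20.6) in BAT sham, 12.5 (9.35 to 16.3) in BeAT surgery and 7.32 (6.15 to 8.65) in BeAT sham. BAT sham was highest and BAT surgery lowest, and no 2 of these intervals overlap. T or NK-like nuclei held 0 Lhx8 UMIs in BAT surgery, BAT sham and BeAT sham and 3 in BeAT surgery, although a count of 0 there allows up to 44.1% of the adipocyte level in BAT sham and 156% in BeAT sham. Lhx8 was not particular to fat cells: adipose progenitor-like nuclei had 0 CPM in BAT surgery (50 nuclei, a limit of 15.8), 21.5 (18.2 to 25.3) in BAT sham, 13.1 (5.28 to 27.0) in BeAT surgery and 18.2 (13.6 to 23.9) in BeAT sham. In BeAT sham that progenitor level was above the adipocyte level.

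Other genes used to tell brown from beige fat were read beside the members. Zic1, a brown-lineage factor, had 0 UMIs in BAT surgery, 1 in BAT sham, 0 in BeAT surgery and 0 in BeAT sham adipocyte-like nuclei. Elovl3, a cold-induced fatty acid elongase, had 0 in each library. Of the beige markers, Tmem26 had 0, 3, 4 and 2 UMIs and Tbx1 0, 40, 6 and 55 UMIs in BAT surgery, BAT sham, BeAT surgery and BeAT sham. Cidea, a lipid droplet protein of brown and beige cells, had 2.22 CPM (0.958 to 4.37) in BAT surgery, 29.5 (27.4 to 31.7) in BAT sham, 35.1 (29.7 to 41.2) in BeAT surgery and 56.8 (53.4 to 60.3) in BeAT sham. Lep, the leptin gene of white fat, stood at 167 CPM in BAT surgery, 485 in BAT sham, 220 in BeAT surgery and 566 in BeAT sham. The library labelled BAT sham therefore carried leptin RNA at 485 CPM and Ucp1 at 0.0802 CPM, and the library labelled BeAT sham 566 and 0.159 CPM, so neither Ucp1 nor Zic1 bore out the brown label.

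**Figure D2:**
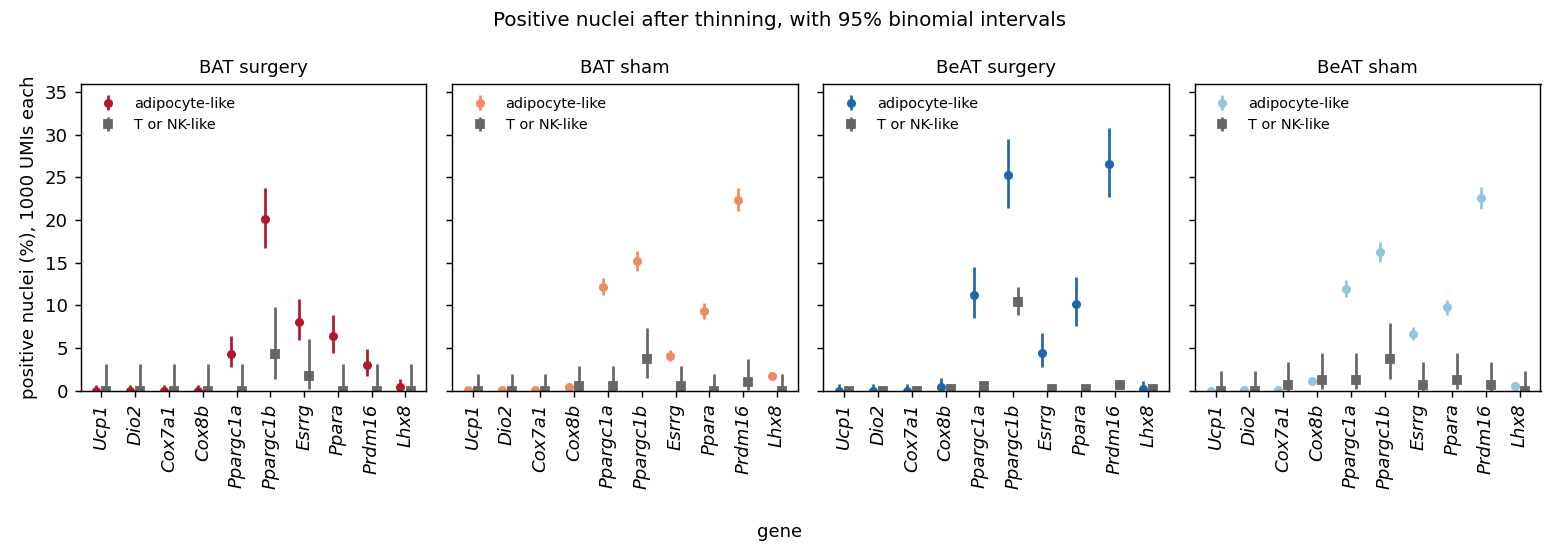
Share of nuclei with at least 1 UMI after each nucleus was thinned to 1000 UMIs, in adipocyte-like nuclei (coloured circles) and T or NK-like nuclei (grey squares), with exact 95% binomial intervals. Prdm16, Ppargc1a and Ppara stand above the lymphoid share in each library, and Ucp1, Dio2, Cox7a1 and Cox8b lie close to it.

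At an equal depth of 1000 UMIs a nucleus, BAT surgery stayed lowest for Prdm16, Ppargc1a and Ppara. Prdm16 was positive in 3.01% of adipocyte-like nuclei in BAT surgery, 22.4% in BAT sham, 26.6% in BeAT surgery and 22.5% in BeAT sham. T or NK-like nuclei gave 0% in BAT surgery, 1.05% in BAT sham, 0.713% in BeAT surgery and 0.621% in BeAT sham. Ppargc1a was positive in 4.32% in BAT surgery, 12.2% in BAT sham, 11.3% in BeAT surgery and 11.9% in BeAT sham, with at most 1.24% in T or NK-like nuclei. Lhx8 was left with 2, 68, 1 and 24 positive nuclei in that order, too few in the surgery libraries to order them. Thinning left out nuclei under 1000 UMIs and kept 532, 3904, 470 and 4214 adipocyte-like nuclei in that order of libraries.
The level of a fat gene in T or NK-like nuclei differed between libraries, and its source was not tested. Adipoq, the adiponectin gene that lymphocytes do not use, stood in T or NK-like nuclei at 5.16% of its adipocyte CPM in BAT surgery, 55.3% in BAT sham, 6.98% in BeAT surgery and 38.7% in BeAT sham. Prdm16 stood there at 11.4% (0.286 to 64.6), 7.22%, 3.58% and 4.62% in the same order, well under the Adipoq share in both sham libraries. Esrrg reached 48.8% in BAT sham (11 UMIs, in 0.913% of the T or NK-like nuclei) and 25.3% in BeAT sham (7 UMIs).

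In BAT surgery over BAT sham, 1 of the 7 members with at least 50 UMIs in the pair was at least 2-fold higher and 4 were at least 2-fold lower. Over all 13003 genes counted in this pair the shares were 5.33% higher and 13.4% lower. Lhx8 was 11.3-fold lower in BAT surgery (5.16 to 31.0), Prdm16 6.79-fold lower (5.71 to 8.13), Ppargc1a 2.32-fold lower (2.01 to 2.71) and Cox8b 2.09-fold lower with an interval that includes no difference (0.976 to 5.32). With the span trend off Cox8b was no longer past 2-fold, at a log2 ratio of -0.35, and Ppara was, at -1.06, so the count of 4 then held Ppara in place of Cox8b. Lhx8 had a log2 ratio of -1.73 at 1000 UMIs a nucleus, against -3.50 with all UMIs. Esrrg was 2.02-fold higher (1.79 to 2.27), a value on the line that passes under 2-fold when nuclei are thinned or the trend with gene span is taken off. Ppara was 1.82-fold lower (1.58 to 2.10) and Ppargc1b 1.43-fold higher (1.33 to 1.53). The adipocyte-like nuclei of BAT surgery held epithelial markers at a summed 21.4 CPM (6 of 7 markers present, Krt5 at 0), against 0.842 CPM in BAT sham (6 of 7, Cdh1 at 0), and the part of these in the member ratios was not tested. Without cluster 19, which leaves 49 BAT surgery nuclei, the log2 ratio was -2.86 for Prdm16 and -0.70 for Ppargc1a, against -2.76 and -1.22 with it. Nuclei were also picked by adipocyte markers alone, with no clusters. That set held 1282 BAT surgery nuclei, 562 of them in the adipocyte-like class, and 5177 BAT sham nuclei, 3993 of them in it. There Prdm16 had a log2 ratio of -0.94 and Ppargc1b of -0.60, while Esrrg had 2.65. The part of nuclei from outside the class in these ratios was not tested.

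**Figure D3:**
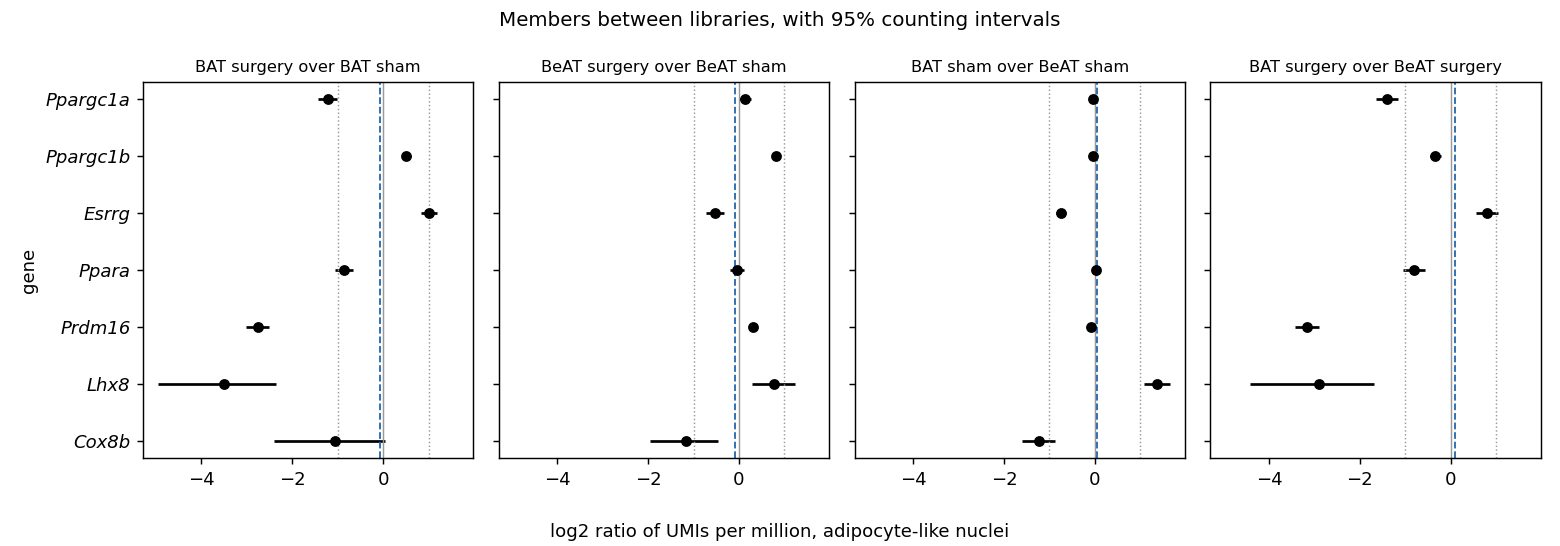
Log2 ratio of CPM in adipocyte-like nuclei for members with at least 50 UMIs in a pair, with 95% counting intervals. Dotted lines mark 2-fold and the dashed line the median of all genes counted. Lhx8 and Prdm16 lie furthest to the left in both comparisons that involve BAT surgery, and in the comparison of sham libraries Ppargc1a, Ppargc1b, Ppara and Prdm16 lie close to 0.

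In BeAT surgery over BeAT sham, 0 of 7 members were at least 2-fold higher and 1 was at least 2-fold lower, against 4.15% and 14.9% of the 12331 genes counted. The 1 member was Cox8b, 2.25-fold lower (1.38 to 3.89), with 18 and 180 UMIs. Its log2 ratio was -1.17 and became 0.16 once the trend with gene span was taken off. Erythroid markers, a sign of blood RNA, summed to 19.8 CPM in the adipocyte-like nuclei of BeAT surgery against 219 CPM in BeAT sham, with all 5 present in both, and their part in the member ratios was not tested. The trend with span was strong in this pair: genes in the shortest of 20 span bins had a median log2 ratio of -1.33 and those in the longest 0.47. Of all genes past 2-fold, 21.8% were higher as measured and 44.2% with the trend off. Ppargc1b was 1.77-fold higher (1.66 to 1.88), Lhx8 1.71-fold higher (1.22 to 2.36) and Prdm16 1.24-fold higher (1.17 to 1.31). With the trend off Prdm16 turned to a log2 ratio of -0.16. Ppargc1b then had 0.50 against 0.82 as measured, and Lhx8 0.89 against 0.77. Esrrg was 1.44-fold lower (1.26 to 1.66), a log2 ratio of -0.53 that became 0.05 with nuclei picked by markers alone. That ratio was -0.938 at 1000 UMIs a nucleus and -1.003 with the span trend off. The 1 member at least 2-fold lower with the trend off was thus Esrrg in place of Cox8b. Within cluster 2, which held 80.2% of the BeAT surgery and 25.9% of the BeAT sham adipocyte-like nuclei, Esrrg was instead higher in BeAT surgery, at 57.7 CPM (50.3 to 65.9) against 33.1 (28.9 to 37.8) in BeAT sham. Lhx8 had a log2 ratio of -1.42 at 1000 UMIs a nucleus, against 0.77 with all UMIs. Ppargc1a and Ppara had ratios of 1.09 (0.998 to 1.20) and 0.974 (0.876 to 1.08). Lymphocyte markers also differed: in adipocyte-like nuclei 8 T or NK markers summed to 35.3 CPM in BeAT surgery (Klrb1c at 0) against 5.67 CPM in BeAT sham (none at 0), and 6 B cell markers to 113 CPM in BeAT surgery against 28.3 CPM in BeAT sham (none at 0 in either). Their part in the ratios was not tested.

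In BAT sham over BeAT sham, which uses the same sham libraries as the surgery comparisons, 4 regulators lay near a ratio of 1. Ppargc1a had a ratio of 0.968 (0.917 to 1.02), Ppargc1b 0.980 (0.938 to 1.03), Ppara 1.01 (0.955 to 1.07) and Prdm16 0.943 (0.908 to 0.979). Lhx8 was 2.58-fold higher in BAT sham (2.13 to 3.14) and was the 1 of 7 members past 2-fold upward, against 1.73% of 13836 genes. Cox8b was 2.36-fold lower (1.84 to 3.04) and the 1 past 2-fold downward, against 0.824%, with lymphoid levels not below the adipocyte ones in either library. Esrrg was 1.67-fold lower (1.55 to 1.80). Apart from Lhx8, then, no regulator among the members set the 2 sham labels apart by 2-fold.

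In BAT surgery over BeAT surgery, 0 of 6 members were at least 2-fold higher and 3 at least 2-fold lower, against 4.59% and 3.55% of 9545 genes. Prdm16 was 8.92-fold lower (7.45 to 10.7), Lhx8 7.50-fold lower (3.23 to 21.4) and Ppargc1a 2.63-fold lower (2.23 to 3.11). Ppara was 1.75-fold lower (1.48 to 2.07), Ppargc1b 1.26-fold lower (1.16 to 1.37) and Esrrg 1.75-fold higher (1.48 to 2.06). Without cluster 19 the log2 ratio of Ppargc1a was -0.86, against -1.39 with it, and that of Ppargc1b was 0.29, against -0.34 with it. With nuclei picked by markers alone the log2 ratios were -1.26 for Prdm16, -1.39 for Ppargc1b and 2.41 for Esrrg, against -3.16, -0.34 and 0.81 as measured. Of the nuclei so picked, 562 of 1282 in BAT surgery and 480 of 632 in BeAT surgery were in the adipocyte-like class. At 1000 UMIs a nucleus Lhx8 turned to a log2 ratio of 1.41, from 2 positive nuclei in BAT surgery and 1 in BeAT surgery.

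**Figure D4:**
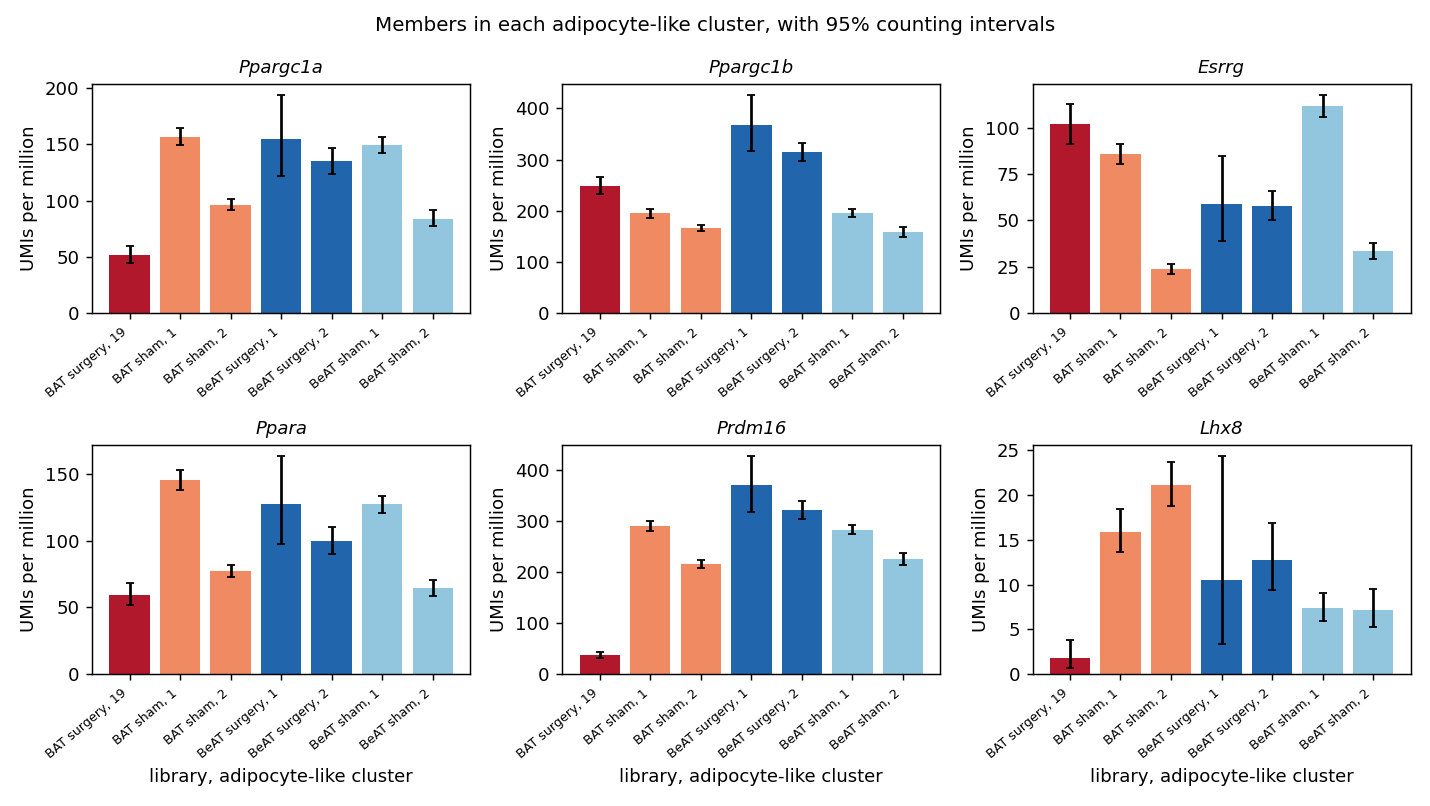
Level of 6 members in each adipocyte-like cluster with at least 50 nuclei of a library in CPM with 95% counting intervals. Cluster 1 stands above cluster 2 within each sham library for Ppargc1a, Esrrg and Ppara, and Prdm16 is lowest in cluster 19.

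Within each sham library the adipocyte-like nuclei fell into clusters 1 and 2. These clusters were made from the same counts, so the values describe them and test nothing. In BAT sham, Esrrg had 85.7 CPM (80.2 to 91.3) in cluster 1 and 23.6 (21.1 to 26.2) in cluster 2, and in BeAT sham 112 (106 to 118) and 33.1 (28.9 to 37.8). Ppara had 146 and 77.0 CPM in BAT sham and 127 and 64.5 in BeAT sham, and Ppargc1a 157 and 96.3 in BAT sham and 149 and 83.9 in BeAT sham, each with cluster 1 first. Prdm16 differed less, with 291 and 215 CPM in BAT sham and 284 and 227 in BeAT sham. Lhx8 went the other way in BAT sham (15.9 and 21.1 CPM) and was level in BeAT sham (7.41 and 7.14). Cidea was also higher in cluster 1, at 46.4 against 16.5 CPM in BAT sham and 74.4 against 23.9 in BeAT sham, while Lep was higher in cluster 2 of both, at 347 and 590 CPM in BAT sham and 455 and 772 in BeAT sham. Ucp1 was a feature of neither cluster: cluster 1 held its 2 UMIs in BAT sham and 3 in BeAT sham, and cluster 2 held 0. BeAT surgery placed 80.2% of its adipocyte-like nuclei in cluster 2, and there it had 135 CPM of Ppargc1a, 314 of Ppargc1b and 322 of Prdm16, against 83.9, 158 and 227 CPM in cluster 2 of BeAT sham. Ppara there was 99.7 CPM (89.9 to 110.4) in BeAT surgery against 64.5 (58.5 to 70.9) in BeAT sham, while over the whole class the 2 libraries were level.

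Most Prdm16 UMIs lay in fat nuclei in 3 libraries, but not in BAT surgery. Of the Prdm16 UMIs, adipocyte-like nuclei held 1.92% in BAT surgery, 81.0% in BAT sham, 84.0% in BeAT surgery and 79.2% in BeAT sham. In BAT surgery 6426 of 6875 Prdm16 UMIs and 23527 of 24533 Esrrg UMIs were in epithelial-like nuclei, where Esrrg stood at 604 CPM (596 to 611). A count of whole tissue would thus have given BAT surgery 473 CPM of Esrrg against 53.3 CPM in BAT sham, a gap that its fat nuclei show at 102 against 50.5. Its level was highest in epithelial-like clusters 32 and 20, at 3432 and 1634 CPM, which held 3649 and 3067 of those 23527 UMIs and whose leading genes included Slc26a3 and Atp6v1g3 in cluster 32 and Lrp2 and Slc9a3 in cluster 20. Prdm16 reached 584 CPM in epithelial-like cluster 25 of BAT surgery and 432 CPM (375 to 495) in endothelial-like cluster 21 of BAT sham, both above its adipocyte level in the same library. Ppargc1b was also found in immune nuclei of BeAT surgery, at 121 CPM (111 to 132) in T or NK-like and 167 CPM in macrophage-like nuclei, against 48.8 and 54.6 CPM in BeAT sham. Esrrg, too, reached 289 CPM (253 to 328) in macrophage-like nuclei of BeAT surgery. Ppargc1a was near its fat level in skeletal muscle-like nuclei of BAT sham, at 105 CPM.

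**Figure D5:**
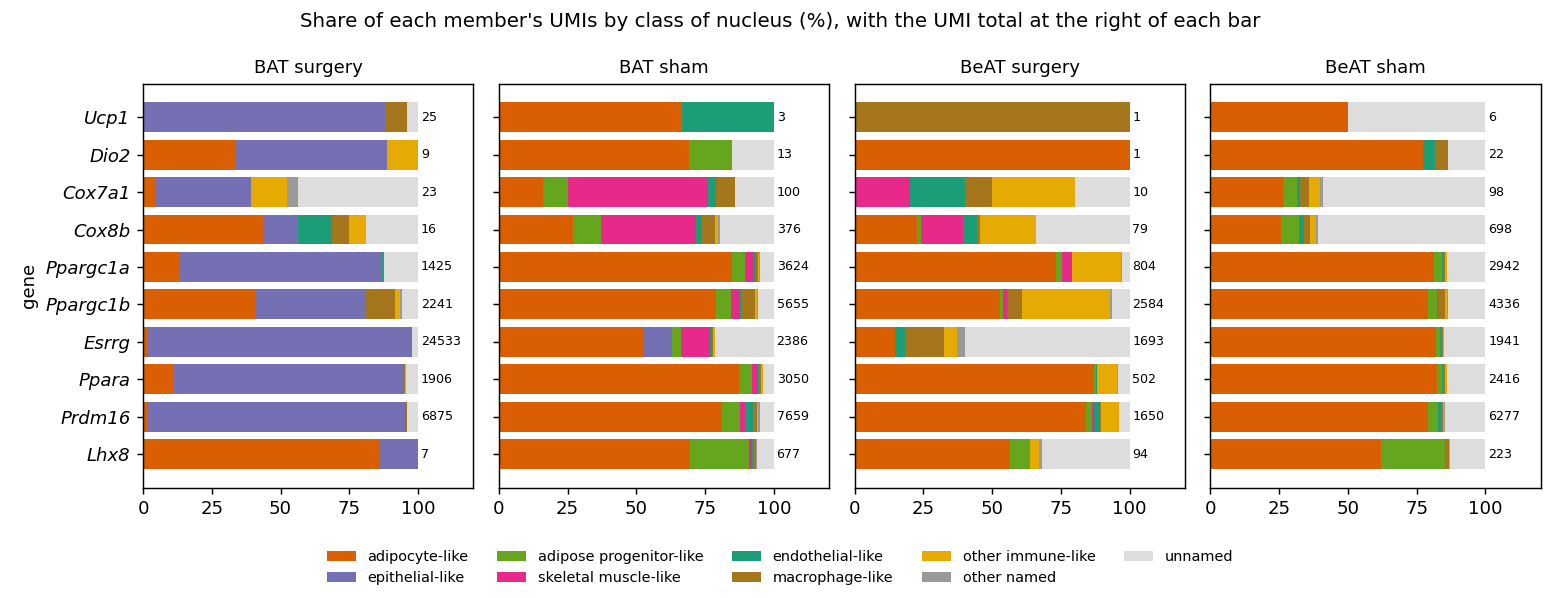
Share of each member's UMIs by class of nucleus in each library, in percent, with the total UMI count at the right of each bar. In BAT surgery the epithelial-like class holds most UMIs of Prdm16, Esrrg, Ppara and Ppargc1a, while in both sham libraries the adipocyte-like class does, and the skeletal muscle-like class of BAT sham holds much of Cox7a1 and Cox8b.

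The partners of the members were read from 9 lists in the same adipocyte-like nuclei. On the cyclic AMP route to Ucp1 and Ppargc1a, Adrb1, a beta-adrenergic receptor, had 12.5 CPM in BAT surgery against 36.4 in BAT sham, 2.92-fold lower (2.16 to 4.03). Adcy3, an adenylyl cyclase, had 11.9 CPM in BAT surgery against 36.2 in BAT sham, 3.03-fold lower (2.23 to 4.22). Adrb3, the main receptor of mouse fat, had 799 CPM in BAT surgery and 1366 in BAT sham, and 629 CPM in BeAT surgery against 1389 in BeAT sham, a 2.21-fold lower level (2.12 to 2.30). Adcy5, another adenylyl cyclase, was 2.81-fold higher in BeAT surgery over BeAT sham (2.52 to 3.14). In BAT sham over BeAT sham none of the 15 genes of the route passed 2-fold in these sums, where 2.55% of all genes did. Adrb3 and Pde3b of this route are among the 11 markers that name the adipocyte-like class, so their presence there was fixed by the class.
Among transcriptional partners, 4 of 27 were higher and 3 lower in BAT surgery over BAT sham, 25.9% past 2-fold against 18.7% of all genes, with a median log2 ratio of 0.18 against -0.06 over all genes. With the span trend off 1 was higher and 2 were lower, with a median of 0.10. Mecom, a relative of Prdm16, was 12.9-fold lower (7.0 to 27.1). It is also among the 10 endothelial markers, which with Mecom summed to 9.99 CPM in BAT surgery and 63.1 CPM in BAT sham adipocyte-like nuclei. The part of endothelial RNA in the Mecom ratio was not tested. Foxo1, a factor of the fasting response, was 2.16-fold higher (2.07 to 2.26). In BeAT surgery over BeAT sham 3 of 26 were higher and 1 was lower, 15.4% past 2-fold against 19.1% of all genes. Their median was 0.37 against -0.09 over all genes, and became 0.07 with the span trend off. Foxo1 was 2.63-fold higher (2.51 to 2.75), Irf4, a fasting-induced partner of Ppargc1a that lymphocytes also use, 4.77-fold higher (3.57 to 6.36) beside the higher lymphocyte markers given above, whose part was not tested, and Tfam, the mitochondrial DNA factor, 2.25-fold lower (1.48 to 3.58). None of the 10 repressors counted in each of these 2 comparisons passed 2-fold, while 18.7% and 19.1% of all genes did.

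The list of thermogenic effectors, which leaves out the members, had 0 of 21 higher and 3 lower in BAT surgery over BAT sham. That was 14.3% past 2-fold against 18.7% of all genes, with a median log2 ratio of -0.04 against -0.06 over all genes. Among the 3 lower was Cidea, at 13.3-fold lower (6.71 to 30.9). In BeAT surgery over BeAT sham 2 of 21 were higher and 1 was lower. That was 14.3% past 2-fold against 19.1% of all genes, with a median of 0.17 against -0.09 over all genes. Pdk4, which spares glucose for fat burning, was 4.27-fold higher (3.85 to 4.74), and Slc25a20, the carnitine carrier of mitochondria, 2.38-fold higher (2.11 to 2.69). The common cytochrome oxidase subunits had 0 of 11 past 2-fold in BAT surgery over BAT sham, where 18.7% of all genes were. For BeAT surgery over BeAT sham 7 of 11 were lower, 63.6% past 2-fold against 19.1% of all genes. Their median log2 ratio there was -1.49. With the span trend off 4 of 11 were lower and the median was -0.62.
Most white fat markers were lower in BAT surgery. The white list had 1 of 9 higher and 6 lower over BAT sham, 77.8% past 2-fold against 18.7% of all genes. Its median was -1.54 (-1.17 with the span trend off). Hoxc10 had 0 UMIs against 454 in BAT sham, at least 21.9-fold lower with 3 UMIs put for the 0. Nnat was 18.9-fold lower and Agt 14.8-fold higher (8.65 to 26.2). Hoxc9, from the beige list, was 17-fold lower (7.24 to 52.5). Hox genes keep a record of where in the body a cell arose. In BeAT surgery over BeAT sham 2 of 8 white markers were lower and 0 higher, 25% past 2-fold against 19.1% of all genes. Their median of -0.82 became -0.04 with the span trend off. Nnat had 848 CPM in BeAT surgery against 5915 in BeAT sham, and Lep 220 against 566. In BAT sham over BeAT sham, by contrast, 0 of 8 white, 0 of 7 brown depot and 0 of 8 beige markers were past 2-fold, where 2.55% of all genes were.

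Single nuclei were also asked how many of the 10 members they held. Adipocyte-like nuclei held on average 1.46 members in BAT surgery, 2.20 in BAT sham, 2.70 in BeAT surgery and 1.87 in BeAT sham, and at 1000 UMIs each 0.423, 0.655, 0.785 and 0.689. The share with none was 65.0%, 50.8%, 43.6% and 49.1% at that depth. Ppargc1a looked more frequent in nuclei that held Ppara, at 48.6% against 37.8% in BAT sham, but at 1000 UMIs the shares were 14.3% (10.9 to 18.4) and 12% (10.9 to 13.1), whose intervals overlap. With Esrrg as the partner the shares in BAT sham at that depth were 18.6% (12.9 to 25.5) and 11.9% (10.9 to 13), whose intervals just overlap. BeAT sham had 12.9% (9.20 to 17.4) and 11.8% (10.8 to 12.9), and the intervals of each surgery library overlapped too.
Across 34 sums of 1 library and class, which share libraries and depth, the genes whose levels ran most like a member's were Echdc1 for Ppargc1a (Pearson r 0.84), Pde3b for Ppargc1b (0.83), Sox6 for Prdm16 (0.86, second to the uncharacterised 4930527F14Rik), Adhfe1 for Ppara (0.88) and Gm28286 for Esrrg (0.71). Pde3b is a marker used to name the adipocyte-like class. Ucp1, Dio2, Cox7a1, Cox8b and Lhx8 had too few sums with 20 UMIs. Among the members, Ppargc1a ran with Prdm16 at 0.75 and with Ppara at 0.70, and Esrrg with Ppargc1a at 0.09.

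Gene structure limits some of these counts. The members span from 1.5 kb (Cox8b) and 1.94 kb (Cox7a1) to 321 kb (Prdm16) and 606 kb (Esrrg) in GENCODE M21 on GRCm38, and long genes give more intronic RNA in nuclei. Ppargc1a, Ppargc1b, Prdm16, Esrrg and Dio2 overlap genes on the other strand, 3 each for Prdm16 and Esrrg, and the labels do not state whether the authors' counting used strand. Ucp1, Ppara, Cox7a1, Cox8b and Lhx8 overlap no annotated gene.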

How the data were processed

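Single-nucleus RNA was counted in 4 libraries. The deposited files hold whole-number UMI counts per gene and barcode; per the submitters' processing notes, build mm10 and Seurat 4.4.0 and 4 were used; aligner and counter: not given in the sources used here. From the authors came 9946, 10445, 5952 and 10417 barcodes for BAT surgery, BAT sham, BeAT surgery and BeAT sham, with 60409801, 47525684, 23118695 and 35675477 UMIs, and 310 barcode sequences occur in more than 1 library.

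Nuclei were kept with at least 500 UMIs, 300 genes and under 10% mitochondrial UMIs. Scrublet doublets (scanpy 1.11.5, expected 6%) were removed: 811, 446, 647 and, where the automatic threshold marked 0 in BeAT sham, the top 623. Counts scaled to 10000 and logged, 2000 variable genes, 30 components, 15 neighbours and Leiden resolution 1 gave 37 clusters. A cluster could be named where at least 3 markers of a class were 2-fold over the median cluster and found in 5% of its nuclei. The mean marker score had to reach 4-fold, and no unrelated second class, erythroid aside, could reach 60% of that score with 60% of its markers. Clusters led by markers of another class or by mitochondrial genes, or low in UMIs, were not named either. In all 8 stayed unnamed. Counts were summed per library and class (at least 50 nuclei). CPM carries an exact Poisson interval, a share a Clopper-Pearson interval and a ratio an exact conditional binomial interval, all at 95% and for counting error only; 3 counts stand for a 0. A 2-fold difference with 50 UMIs or more in the pair was called higher or lower, which is a rule of size and not a test. The ratios were tested on simulated data. Spans came from GENCODE M21 for 32158 gene identifiers, and promoter sequences from RefSeq (GRCm38.p6). Likeness used log2(CPM + 1).

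The members and lists were chosen with earlier results of these data known. Named genes are the 10 members, Zic1, Cidea, Tbx1, Tmem26, Lep, Adipoq and Elovl3, and of each list up to 4 genes each way past 2-fold, of which a part is printed, and 1 gene is not reported here; Adrb3 in BAT surgery and the genes that lead a cluster were chosen after their values were seen. The added alternatives were chosen after seeing the data.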

Additional observations from a re-analysis of the deposited data

Results flagged for a closer look

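In adipocyte-like nuclei 3 members differed in sign between the surgery comparisons with counting intervals that exclude a ratio of 1 in both, a difference that was not tested. Prdm16 had a log2 ratio of -2.76 for BAT surgery over BAT sham and 0.31 for BeAT surgery over BeAT sham, and the second turned to -0.16 with the span trend off. Esrrg had 1.01 and -0.53 in that order of comparisons, and the second was 0.05 with nuclei picked by markers alone. The second Esrrg value was -0.938 at 1000 UMIs a nucleus and -1.003 with the span trend off. Lhx8 had -3.50 and 0.77, and its BeAT value was -1.42 at 1000 UMIs a nucleus. Ppargc1a also differed in sign, at -1.22 and 0.13, but its BeAT interval includes a ratio of 1.

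Unnamed cluster 30, made of 163 BeAT surgery nuclei and none from the other libraries, held Esrrg at 1078 CPM (1011 to 1149), in 84 of its nuclei, and Lhx8 at 32.9 CPM (22.0 to 47.3). Unnamed nuclei of BeAT sham had 36.9 CPM of Esrrg and 3.69 CPM of Lhx8. The cluster's leading genes included Csmd1, Nxph1, Pcdh15 and Syt1, and it held 4.54 CPM of Ppargc1a.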

How the results depend on the processing

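The counts of members past 2-fold kept within 1.5 times their value, in both directions and in each of the 4 comparisons, with median-of-ratios scaling, with called doublets kept, with totals freed of mitochondrial and leaked genes, and without nuclei whose barcode occurs in 2 libraries. In BAT surgery over BAT sham the 1 higher member became 0 at 1000 UMIs or with the span trend off, and 2 with no minimum of UMIs or without cluster 19. In BeAT surgery over BeAT sham the 1 lower member became 0 at 1000 UMIs, 2 with nuclei picked by markers alone and 4 with no minimum. There 0 higher became 2 at 1.5-fold. In BAT sham over BeAT sham the 1 lower member became 2 by markers or at 1.5-fold, 0 with the trend off and 3 with no minimum. In BAT surgery over BeAT surgery 0 higher became 1 by markers or at 1.5-fold and 2 with no minimum, and 3 lower became 6 by markers. Of the log2 ratios past 2-fold as measured, 2 reversed: Cox8b in BeAT surgery over BeAT sham, to 0.16 with the trend off, and Lhx8 in BAT surgery over BeAT surgery, to 1.41 at 1000 UMIs, where 2 positive nuclei in BAT surgery stand against 1. Ratios under 2-fold changed sign too, among them Ppargc1b in BAT surgery over BAT sham (0.51, and -0.60 by markers), Lhx8 in BeAT surgery over BeAT sham (0.77, and -1.42 at 1000 UMIs) and Ppargc1b in BAT surgery over BeAT surgery (-0.34, and 0.29 without cluster 19). The cause was not tested. Over all genes, in the order of comparisons above, counts ranged over the alternatives from 435 to 2920 higher and 999 to 7001 lower (693 and 1739 as measured), 363 to 3145 and 821 to 6067 (512 and 1839), 71 to 3247 and 84 to 1914 (239 and 114), and 98 to 3413 and 102 to 3652 (438 and 339). No paired analysis was possible because each group has 1 library.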

Other observations

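Some single nuclei carried a large part of a class's count. In unnamed BAT sham nuclei 1 nucleus held 411 of 512 Esrrg UMIs, and 1 held 54 of 188 Ppargc1a UMIs. In epithelial-like nuclei of BAT surgery the highest nucleus held 707 Esrrg UMIs, 3.01% of that class's count. All 54 Esrrg UMIs of the lymphatic endothelial-like nuclei of BeAT surgery were in 1 nucleus, and 39 of 60 in its endothelial-like nuclei. Macrophage-like nuclei of BeAT surgery were different: 240 Esrrg UMIs were spread over 35 of 225 nuclei, at 289 CPM (253 to 328), against 12 UMIs and 6.36 CPM in BeAT sham.

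Cox8b was also found in unnamed clusters 4 and 10 of BeAT sham, at 59.8 and 67.9 CPM. Their leading genes included the haemoglobin genes Hba-a1 and Hba-a2, with Cidea and Hcar1 in cluster 4 and Gpihbp1 and Cldn5 in cluster 10. Both clusters scored highest for erythroid markers. They stayed unnamed because a second class also scored, adipocyte in cluster 4 and endothelial in cluster 10. Cluster 4 held 570 BAT sham and 1439 BeAT sham nuclei, which the adipocyte-like values leave out. It had a median of 1044.5 UMIs over all its nuclei.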
